A study of Mus musculus with 16 samples.

Results

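The genes described here mark T and B lymphocytes, and their signal was followed in mouse skeletal muscle with and without the cannabinoid receptor 1 on a rich and on a standard diet. The 9 genes are Cd3d, Cd3e, Cd3g, Cd4, Cd8a, Cd2, Cd79a, Cd79b and Jchain. Every non-control probe whose RefSeq accession belongs to one of them was taken, which gave 12 probes of the 55681 on the array, printed as 39 spots. Cd4, Cd8a and Cd2 had 2 probes each, and each of the other 6 genes had 1. RNA from whole muscle was labelled with Cy3 and hybridised to 16 one-colour Agilent arrays, 4 replicates in each of 4 groups. The labels do not say that each replicate is a separate animal, so p-values measure the spread between these samples. CB1KO_HFHS arrays hold muscle of CB1KO mice fed the high fat-high sugar diet (49.2% of energy as fat and 32.2% as sugar), and WT_HFHS arrays that of wild-type mice on it. CB1KO_SD and WT_SD arrays hold the same genotypes on standard chow (16.7% fat and 12.4% sugar). All mice were males of 21 to 23 weeks after 15 weeks on the diet. The knockout was made by crossing floxed Cnr1 mice with mice carrying Cre under the ACTA1 promoter, which is active in skeletal muscle fibres, so immune cells were not the cells targeted. The growth protocol calls both genotypes Cre-positive, and the treatment protocol mentions a vehicle or S961 assignment that no label gives per sample. A diet field of the labels contradicts the titles for CB1KO_SD and WT_HFHS, and the titles were used. The muscle dissected is not named.

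T cells recognise antigen through a receptor that signals by the CD3 chains, and the co-receptors CD4 and CD8 divide helper from cytotoxic cells. B cells use an analogous receptor with the signalling chains CD79A and CD79B, and when they become plasma cells they express the J chain, which joins antibody units into polymers. Healthy skeletal muscle is known to hold few lymphocytes. Which cells gave the signal of these probes was not tested.

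The promoter sequences of the genes on which the results turn most are shown first: Jchain, the most variable gene, and the CD3 chains, which lie close together on chromosome 9 and belong to the same receptor complex but differed in how they varied. RefSeq windows of 250 bases before to 50 bases after the gene start (GRCm38.p6) were found for 6 of the 9 genes, Cd3d, Cd3e, Cd3g, Cd8a, Cd79a and Jchain. Cd3d and Cd3g point away from each other with starts 1355 bases apart, and the start of Cd3e lies 27825 bases from that of Cd3d. The windows are chr5:88527848-88528147 on the minus strand for Jchain, chr9:44981536-44981835 on the plus strand for Cd3d, chr9:44980382-44980681 on the minus strand for Cd3g and chr9:45009562-45009861 on the minus strand for Cd3e. Capitals mark matches to CANNTG, the E-box motif bound by E proteins such as E2A, which act in both lymphocyte lineages.
Jchain: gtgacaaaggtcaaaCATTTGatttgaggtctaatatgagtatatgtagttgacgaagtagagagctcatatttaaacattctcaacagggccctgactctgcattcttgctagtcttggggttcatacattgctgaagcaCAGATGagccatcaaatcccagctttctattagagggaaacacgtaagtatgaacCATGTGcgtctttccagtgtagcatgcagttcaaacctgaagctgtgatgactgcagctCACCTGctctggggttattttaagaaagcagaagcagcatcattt
Cd3d: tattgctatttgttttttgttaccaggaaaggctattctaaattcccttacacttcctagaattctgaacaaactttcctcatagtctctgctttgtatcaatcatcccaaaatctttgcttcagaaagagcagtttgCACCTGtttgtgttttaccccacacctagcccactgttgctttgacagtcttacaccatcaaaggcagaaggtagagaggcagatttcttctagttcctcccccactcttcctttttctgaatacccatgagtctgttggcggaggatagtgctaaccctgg
Cd3g: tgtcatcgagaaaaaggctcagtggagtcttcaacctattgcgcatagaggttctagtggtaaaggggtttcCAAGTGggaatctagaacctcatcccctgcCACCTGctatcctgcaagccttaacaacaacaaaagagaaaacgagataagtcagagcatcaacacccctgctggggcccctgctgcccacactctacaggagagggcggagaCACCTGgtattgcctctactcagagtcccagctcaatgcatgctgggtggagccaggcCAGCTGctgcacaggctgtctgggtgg
Cd3e: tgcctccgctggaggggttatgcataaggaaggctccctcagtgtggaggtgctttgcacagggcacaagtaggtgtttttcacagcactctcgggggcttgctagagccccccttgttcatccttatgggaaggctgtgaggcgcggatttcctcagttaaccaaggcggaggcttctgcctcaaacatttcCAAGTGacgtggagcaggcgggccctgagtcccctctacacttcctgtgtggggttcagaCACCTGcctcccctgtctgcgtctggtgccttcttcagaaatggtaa
The E-box motif, which reads the same on both strands, occurred 4 times in Jchain, 4 times in Cd3g, 2 times in Cd3e and once in Cd3d, and 72.3% of all 32851 windows of this length held it. The ETS core GGAA, searched on both strands, was in each of the 4 windows, as it was in 96.0% of all windows, and a copy in Cd3e and another in Cd3g each shared their last base with the first of an E-box. The octamer ATGCAAAT, held by 1.74% of windows, and TATAAA, held by 13.6%, had no match on either strand in any of the 6.

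Values are log2 processed intensities minus the array's 75th percentile, so a value of 0 lies at that percentile, and they compare arrays for the same probe but not the levels of different genes. Between 59.6% and 69.2% of spots were well above background on CB1KO_HFHS arrays, 62.4% to 75% on WT_HFHS arrays, 56.7% to 63.3% on CB1KO_SD arrays and 60.6% to 66.6% on WT_SD arrays. All 8 HFHS arrays were on 1 slide and all 8 SD arrays on another, which means that an effect of diet and one of slide cannot be told apart. On both slides the CB1KO arrays filled the second row and the WT arrays the first, so genotype and row on the slide cannot be told apart either. Cnr1 ranged from -2.75 to -1.24 in CB1KO_HFHS, against -2.98 to -1.55 in WT_HFHS, and from -3.54 to -2.01 in CB1KO_SD, against -3.46 to -1.85 in WT_SD. It differed by -0.18 ± 0.33 (SE) between the genotypes averaged over diets (limma, adjusted p = 0.813). Whether its probe lies in the deleted part is not given, so this does not check the labels. All 11 skeletal muscle markers were well above background on every array.

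The lymphocyte transcripts were within reach of the array, but some only just. Cd3e, Cd4, Cd2 and Cd79b were well above background on all 16 arrays, Cd3g on 14, Jchain on 13, Cd3d on 9, Cd8a on 4 and Cd79a on 1. A gene was tested when a probe was well above background on at least 4 arrays, with the brightest such probe standing for it, which left 8 of the 9 genes and 28964 genes in all. Because Cd8a and Cd3d passed with few arrays, their low values carry little information about level. In bulk RNA, fewer lymphocytes and less RNA per lymphocyte cannot be told apart.

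None of the 8 tested genes passed the threshold of 0.05 on the Benjamini-Hochberg adjusted p of limma in any comparison. This held for CB1KO against WT on HFHS, where 0.235% of all tested genes passed, for CB1KO against WT on SD (0.00345%), for both diets averaged (0.708%) and for the genotype-by-diet interaction (0%). It also held for HFHS against SD in CB1KO (0.0276%), in WT (0%) and averaged over genotypes (0.0863%), the last a comparison added after the data were seen. Counts at an unadjusted p under 0.05 were 1 of 8 on HFHS (Cd2), 0 of 8 on SD, 0 of 8 averaged over diets, 1 of 8 for the interaction (Cd3d), 4 of 8 for HFHS against SD in CB1KO (Jchain, Cd3d, Cd2 and Cd79b), 1 of 8 in WT (Jchain) and 3 of 8 averaged over genotypes (Jchain, Cd2 and Cd79b). In the same order, 2597, 2527, 4126, 1024, 2770, 1745 and 3497 of the 28964 genes had an unadjusted p under 0.05. The median log2 fold change of the 8 genes was 0.22 for CB1KO against WT on HFHS, where that of all genes was -0.13, and -0.22 on SD, where that of all genes was -0.12. It was 0.50 for HFHS against SD in CB1KO and -0.056 in WT, where the medians of all genes were -0.057 and -0.051. Groups of 4 arrays that did not overlap were found for 0 of 8 genes between CB1KO and WT on HFHS, for 0 of 8 on SD, for 2 of 8 between HFHS and SD in CB1KO, and for 0 of 8 in WT. Over all tested genes such groups made up 10.1%, 3.96%, 3.76% and 5.53% in these comparisons.

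**Figure D1:**
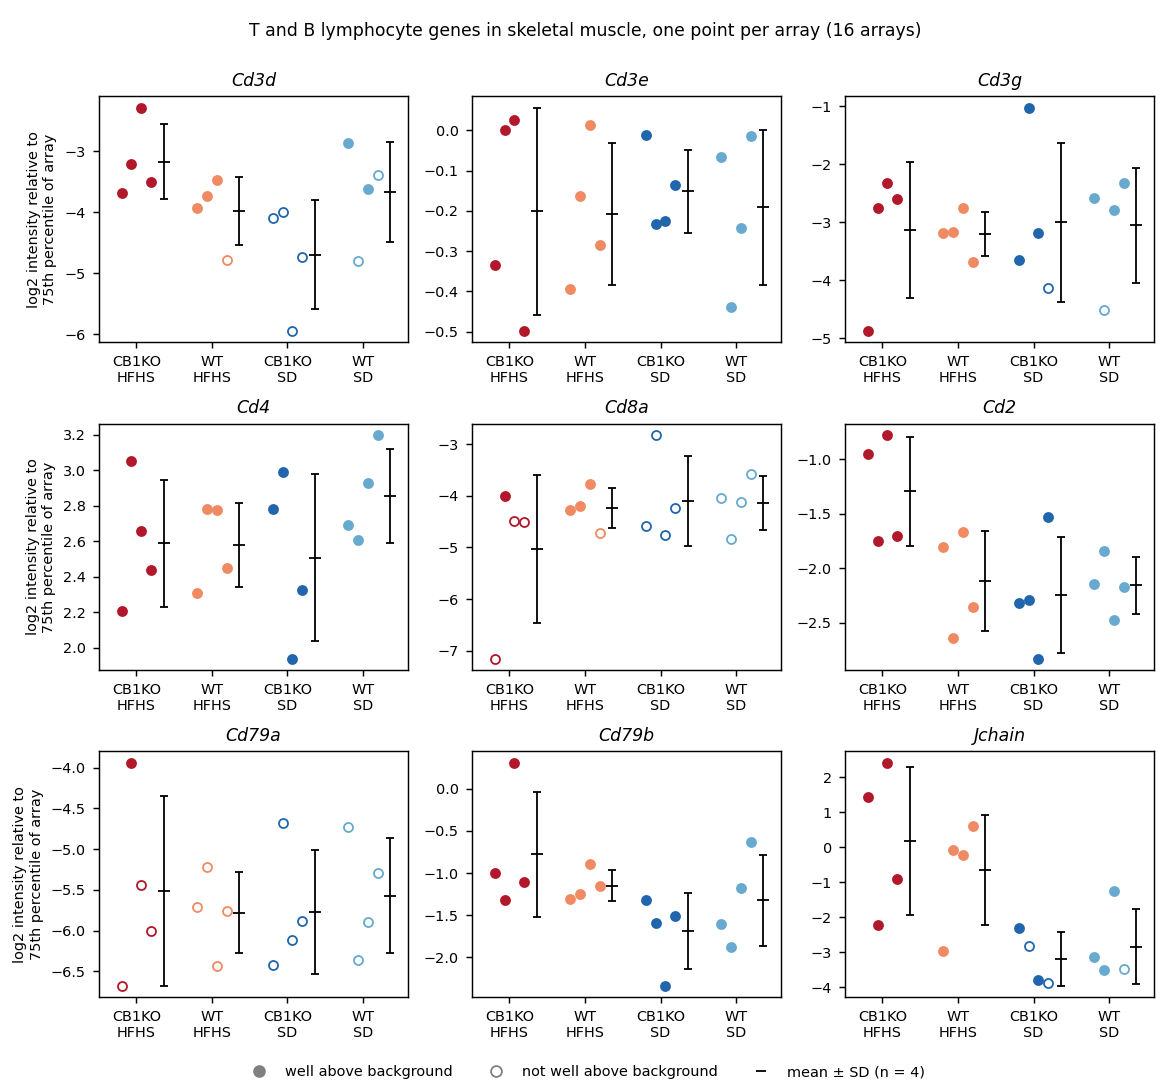
Log2 intensity relative to the array's 75th percentile for the 9 genes, with a panel per gene, a point per array and 4 arrays in each of the 4 groups; open points are not well above background, and the bar beside each group is its mean ± SD. Jchain spans -3.89 to 2.42 and has its highest values on HFHS arrays, whereas Cd3e stays between -0.50 and 0.027 in all groups.

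Jchain, the J chain gene of antibody-secreting cells, had the widest range of the 8 genes, 79.2-fold over the 16 arrays. In CB1KO_HFHS it was at 1.44, -2.21, 2.42 and -0.91 (mean 0.18 ± 2.12, SD, n = 4), and in WT_HFHS at -2.95, -0.073, -0.23 and 0.62 (mean -0.66 ± 1.57). In CB1KO_SD it was at -2.29, -2.82, -3.79 and -3.89 (mean -3.20 ± 0.77), and in WT_SD at -3.14, -3.49, -1.24 and -3.47 (mean -2.83 ± 1.08). On HFHS, 6 of the 8 arrays lay above every SD array, and replicate 2 of CB1KO_HFHS and replicate 1 of WT_HFHS lay among the SD arrays. The HFHS and SD arrays of CB1KO narrowly failed to overlap, and those of WT overlapped.

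Between HFHS and SD, Jchain differed by 3.38 ± 0.97 (log2, SE) in CB1KO, with a 95% confidence interval of 1.30 to 5.47, which is 10.4-fold on the fitted scale. This missed the threshold (limma, adjusted p = 0.237), and the exact two-sided permutation test gave p = 0.0286, the smallest it allows with 4 against 4. In WT the difference was 2.18 ± 0.97 (interval 0.090 to 4.26, adjusted p = 0.814, exact permutation p = 0.0571). Averaged over genotypes it was 2.78 ± 0.69 (adjusted p = 0.140, exact permutation p = 0.00286), a rank of 253 among 28964 genes by p, and higher on HFHS in both genotypes. The differences between the genotypes were smaller than the spread between replicates, 0.84 ± 0.97 on HFHS (adjusted p = 0.801) and -0.36 ± 0.97 on SD (adjusted p = 0.959). The interaction was 1.20 ± 1.38 (adjusted p = 1.00), so the diet difference was not shown to differ between CB1KO and WT.

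**Figure D2:**
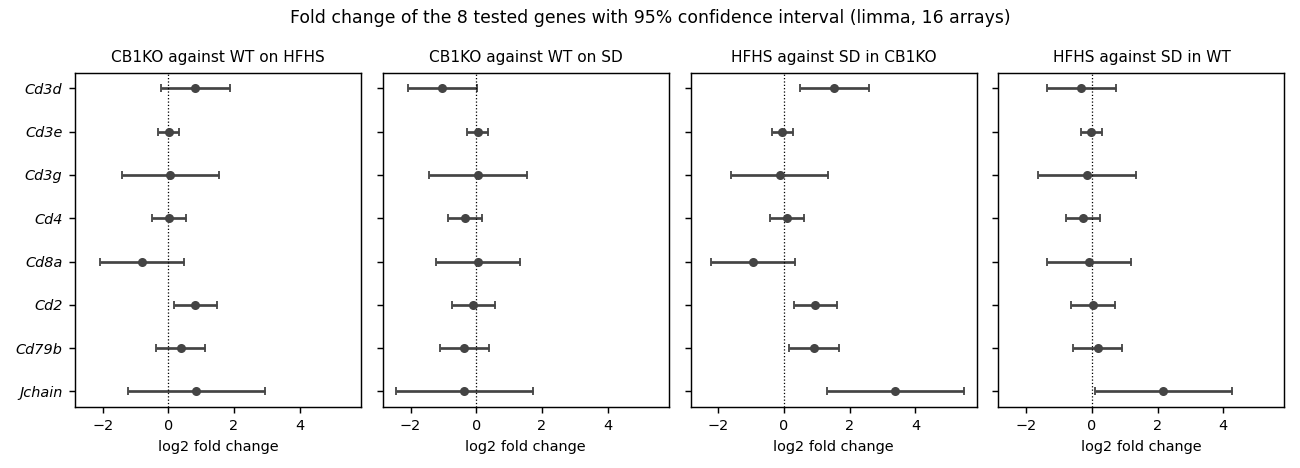
Log2 fold change of the 8 tested genes (rows) with its 95% confidence interval in each of 4 comparisons (panels), from limma on 16 arrays. Jchain, Cd3d, Cd2 and Cd79b have intervals above 0 for HFHS against SD in CB1KO, at 3.38, 1.53, 0.95 and 0.92, while none of the 8 passes the adjusted threshold in any panel.

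The 3 CD3 chains, which carry the signal of the T cell receptor into the cell, did not vary alike. Cd3d was at -3.68, -3.21, -2.28 and -3.50 in CB1KO_HFHS, at -3.93, -3.74, -3.47 and -4.78 in WT_HFHS, at -4.10, -3.99, -5.95 and -4.73 in CB1KO_SD and at -2.86, -4.79, -3.62 and -3.38 in WT_SD. It was well above background on all 4 CB1KO_HFHS arrays, on 3 of 4 WT_HFHS arrays, on 0 of 4 CB1KO_SD arrays and on 2 of 4 WT_SD arrays. The CB1KO_HFHS arrays all lay above the CB1KO_SD arrays, and the WT groups overlapped. Since Cd3d was not well above background on any CB1KO_SD array, the difference is a bound there, at least 1.38-fold higher on HFHS than on SD in CB1KO, taking the dim group at the lowest signal well above background on each array where its own was lower. The fitted difference was 1.53 ± 0.49 (adjusted p = 0.294, exact permutation p = 0.0286). In WT it was -0.32 ± 0.49 (adjusted p = 0.996). The interaction was 1.84 ± 0.70 (interval 0.35 to 3.34), with an unadjusted p of 0.019 that did not survive adjustment over all genes (adjusted p = 1.00; exact permutation p = 0.0229). Both values were smaller after normexp background correction and quantile normalization, at 0.59 for HFHS against SD in CB1KO (adjusted p = 0.120) and 0.68 for the interaction (adjusted p = 0.779). CB1KO against WT gave 0.81 ± 0.49 on HFHS (adjusted p = 0.670) and -1.03 ± 0.49 on SD (adjusted p = 0.593). On SD Cd3d was well above background on 0 of 4 CB1KO and 2 of 4 WT arrays. No bound on the fold was reached there, as the CB1KO mean with the dim values taken at that floor did not lie below the WT mean of -3.66. The SD difference and the interaction that includes it are therefore fitted values, not measured folds.

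Cd3e, the epsilon chain of the complex, had the narrowest range of the 8 genes. It was at -0.33, 0.0022, 0.027 and -0.50 in CB1KO_HFHS, at -0.39, -0.16, 0.014 and -0.29 in WT_HFHS, at -0.012, -0.23, -0.22 and -0.14 in CB1KO_SD and at -0.066, -0.44, -0.24 and -0.014 in WT_SD. All 4 groups overlapped, and the whole range was 1.44-fold. CB1KO against WT averaged over diets was 0.023 ± 0.11 (interval -0.20 to 0.25, adjusted p = 0.932), and HFHS against SD averaged over genotypes was -0.033 ± 0.11 (interval -0.26 to 0.19, adjusted p = 0.897).

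Cd3g ranged 14.4-fold. It was at -4.88, -2.75, -2.33 and -2.61 in CB1KO_HFHS, at -3.19, -3.17, -2.76 and -3.69 in WT_HFHS, at -3.65, -1.03, -3.19 and -4.14 in CB1KO_SD and at -2.58, -4.52, -2.78 and -2.33 in WT_SD. The groups overlapped, and single arrays set the extremes, replicate 1 of CB1KO_HFHS at the bottom and replicate 2 of CB1KO_SD at the top. CB1KO against WT averaged over diets was 0.056 ± 0.49 (interval -0.99 to 1.11, adjusted p = 0.964), and HFHS against SD averaged over genotypes was -0.14 ± 0.49 (interval -1.19 to 0.91, adjusted p = 0.904).

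Cd4, the helper T cell co-receptor, which macrophages also carry in humans and rats, was at 2.21, 3.05, 2.66 and 2.44 in CB1KO_HFHS, at 2.31, 2.78, 2.77 and 2.45 in WT_HFHS, at 2.78, 2.99, 1.94 and 2.33 in CB1KO_SD and at 2.69, 2.61, 2.93 and 3.20 in WT_SD. The groups overlapped. CB1KO against WT averaged over diets was -0.17 ± 0.17 (interval -0.53 to 0.20, adjusted p = 0.669), and HFHS against SD averaged over genotypes was -0.098 ± 0.17 (adjusted p = 0.808). The second Cd4 probe, printed on 10 spots and well above background on all 16 arrays, ranged from -3.24 to -2.06 and gave -0.14 ± 0.16 and -0.32 ± 0.16 in the same comparisons, without passing the threshold (adjusted p = 0.721 and 0.467). The probes differed in sign for HFHS against SD in CB1KO, at -0.18 ± 0.23 for the second probe and 0.080 ± 0.24 for the tested one.

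Cd8a, the co-receptor of cytotoxic T cells, was well above background on 4 of 8 HFHS arrays and 0 of 8 SD arrays, so it entered the test only through HFHS arrays. Its values in CB1KO_HFHS were -7.16, -4.01, -4.48 and -4.50, with 1 array well above background, and in WT_HFHS -4.27, -4.20, -3.77 and -4.72, with 3. The groups overlapped, and CB1KO against WT on HFHS was -0.79 ± 0.60 (interval -2.07 to 0.48, adjusted p = 0.729). The value of -7.16, on replicate 1 of CB1KO_HFHS, was not well above background. Leaving out each array in turn gave -1.14 to -0.088 for this comparison. The other Cd8a probe, on 10 spots and annotated to another transcript of the gene, was well above background on 3 arrays, all of them WT_HFHS. It gave -0.093 ± 0.32 for CB1KO against WT on HFHS (limma, adjusted p = 0.936).

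Cd2, an adhesion receptor of T and natural killer cells, was at -0.95, -1.75, -0.78 and -1.71 in CB1KO_HFHS and at -1.81, -2.65, -1.67 and -2.36 in WT_HFHS. In CB1KO_SD it was at -2.32, -2.30, -2.83 and -1.53, and in WT_SD at -2.15, -1.84, -2.47 and -2.18. The CB1KO_HFHS arrays stood highest, but 1 array of WT_HFHS and 1 of CB1KO_SD reached into their range. CB1KO against WT on HFHS was 0.82 ± 0.31 (interval 0.16 to 1.49, adjusted p = 0.432, exact permutation p = 0.0857), against -0.087 ± 0.31 on SD (adjusted p = 0.970), and the interaction was 0.91 ± 0.44 (adjusted p = 1.00). HFHS against SD was 0.95 ± 0.31 in CB1KO (adjusted p = 0.298, exact permutation p = 0.0857) and 0.039 ± 0.31 in WT (adjusted p = 0.996). A second Cd2 probe, on 10 spots and well above background on 5 arrays, all of them HFHS arrays, gave 0.53 ± 0.31 for CB1KO against WT on HFHS (adjusted p = 0.674).

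Cd79b, a signalling chain of the B cell receptor, was at -0.99, -1.33, 0.31 and -1.10 in CB1KO_HFHS, at -1.31, -1.25, -0.89 and -1.16 in WT_HFHS, at -1.32, -1.59, -2.35 and -1.51 in CB1KO_SD and at -1.61, -1.88, -1.18 and -0.64 in WT_SD. The groups overlapped, those of CB1KO barely. HFHS against SD was 0.92 ± 0.35 in CB1KO (interval 0.16 to 1.67, adjusted p = 0.405, exact permutation p = 0.0571) and 0.17 ± 0.35 in WT (adjusted p = 0.996). CB1KO against WT averaged over diets was 0.0030 ± 0.25 (interval -0.53 to 0.53, adjusted p = 0.997). Cd79a, the partner chain, was well above background only on replicate 2 of CB1KO_HFHS, at -3.94, and was not tested. On the other 15 arrays it was not well above background, so the data give no comparison of the 2 chains.

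Many of the highest values came from a single array. Replicate 3 of CB1KO_HFHS had the highest value of all 16 arrays for Cd3d, Cd3e, Cd2, Cd79b and Jchain, 5 of the 8 tested genes, and the summed linear level of the 8 was 15.0 there, against 7.72 to 10.5 on the other CB1KO_HFHS arrays, 6.76 to 9.87 in WT_HFHS, 5.26 to 10.2 in CB1KO_SD and 7.59 to 11.49 in WT_SD. This sum mostly reflects the brightest probes, on that array Cd4 at 2.66 and Jchain at 2.42, with Cd79b next at 0.31. Replicate 3 of CB1KO_SD had the lowest value for Cd3d, Cd4, Cd2 and Cd79b. Without that CB1KO_HFHS array, HFHS against SD in CB1KO was 2.64 for Jchain (adjusted p = 0.466), 1.23 for Cd3d (0.533), 0.78 for Cd2 (0.536) and 0.55 for Cd79b (0.628), and CB1KO against WT on HFHS was 0.65 for Cd2 (0.711), 0.097 for Jchain (0.978) and 0.0099 for Cd79b (0.992).

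Cd3g, Cd8a and Cd4 were lower on arrays whose signal was more widely spread. The SD of log2 signal over an array ran from 2.89 on replicate 2 of CB1KO_SD to 3.97 on replicate 1 of CB1KO_HFHS. Over the 16 arrays it was related to Cd8a with Pearson r = -0.88 (permutation p = 6e-05, adjusted over 8 genes 0.00024) and Spearman rho = -0.86 (permutation p = 6e-05). For Cd3g r was -0.88 (permutation p = 3e-05, adjusted 0.00024) and rho -0.83 (permutation p = 0.00016), and for Cd4 r was -0.66 (permutation p = 0.0049, adjusted 0.0131) and rho -0.67 (permutation p = 0.00551). Without these 2 arrays, the farthest from the median spread, r was -0.82 for Cd8a, -0.69 for Cd3g and -0.63 for Cd4. It was -0.95, -0.88 and -0.72 among the 8 arrays of the HFHS slide, and -0.98, -0.94 and -0.63 among the 8 of the SD slide. Cd8a was well above background on 4 of the 8 HFHS arrays and 0 of the 8 SD arrays. Most of its values in these correlations are therefore signals not well above background, and carry little information about its level. The other genes had r between -0.32 and 0.35, with adjusted permutation p from 0.306 to 0.935, and Cd3d had rho = -0.55 (permutation p = 0.0291, adjusted 0.0581). Without the same 2 arrays r was -0.51 for Cd3d, -0.47 for Cd3e, -0.33 for Cd79b, 0.078 for Jchain and 0.033 for Cd2, so the genes then differed less in this measure. Each value is a difference from a percentile of its own array, so a value and the array's spread are not independent measures. How such correlations were distributed over all tested genes, or over equally dim ones, was not tested. The permutation p-values therefore do not show that the relation to array spread is particular to Cd3g, Cd8a and Cd4. With this spread as a covariate, Cd3g for HFHS against SD in CB1KO was 0.64 (limma, adjusted p = 0.391) in place of -0.14, and Jchain for the same comparison was 3.26 (adjusted p = 0.223).

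**Figure D3:**
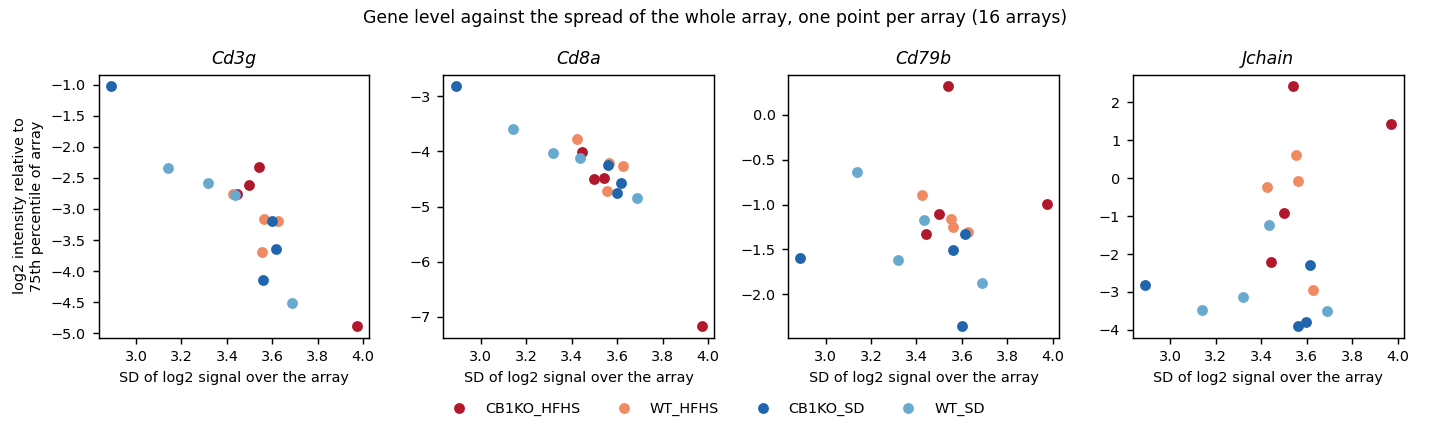
Log2 intensity of Cd3g, Cd8a, Cd79b and Jchain (vertical axes) against the SD of log2 signal over the whole array (horizontal axes), a point per array coloured by group, 16 arrays. Cd3g and Cd8a fall as the spread grows (r = -0.88 for both), whereas r is 0.35 for Jchain and -0.021 for Cd79b, or 0.078 and -0.33 without the 2 arrays at the ends of the horizontal axis.

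Among themselves the 8 genes formed no single pattern. Over the 28 pairs the Pearson r across 16 arrays ran from -0.42 to 0.80 with a median of 0.37, and around the group means from -0.28 to 0.87 with a median of 0.35. These are descriptions, since the points share the arrays and their spread. Cd3g and Cd8a, both related to that spread, had the highest r (0.80), Cd3d and Cd79b had 0.76 and Cd79b and Jchain 0.71, while the neighbours Cd3d and Cd3g had 0.42. Among all tested genes with a symbol, those most like Jchain were Ltb (r = 0.81 over 16 arrays), a lymphotoxin subunit of lymphocytes, Pou2af1 (0.77), a B cell transcriptional coactivator, and Pctp (0.76), a phosphatidylcholine transfer protein. Those most like Cd3d were H2-Oa (0.85), Slamf8 (0.82) and Gng13 (0.82), those most like Cd79b were Gimap3 (0.88), Ugt2a1 (0.82) and H2-Oa (0.81), and those most like Cd2 were Gdf15 (0.88), Tshz3 (0.85) and Tlcd2 (0.85). Those most like Cd3e were Lhb (0.76), Spdef (0.74) and Olfr629 (0.74). For Cd3g they were Defa3 (0.97), Btbd8 (0.96) and Ttll13 (0.95), for Cd4 they included Scgb1b3 (0.95) and Lrfn1 (0.91), and for Cd8a Olfr447 (0.97), Krt26 (0.97) and Amt (0.97).

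Of other T cell genes, 1 passed the threshold between CB1KO and WT, where genotype and row on the slide cannot be told apart. In the list of T cell receptor signalling and co-stimulation, 17 of 20 genes were tested, and for CB1KO against WT averaged over diets 0 rose, 1 fell and 16 did not pass, with a median of 0.033 where all genes had -0.12. The gene that fell was Cd28, the receptor that gives T cells their second activating signal, at -1.72, -1.52, -1.40 and -1.42 in CB1KO_HFHS, against 0.78, 0.95, -0.15 and 1.38 in WT_HFHS, and at -0.92, -1.81, -0.73 and -1.37 in CB1KO_SD, against 0.41, -0.021, -0.18 and 0.73 in WT_SD. The genotypes did not overlap on either diet, as was so for 10.1% of all tested genes on HFHS and 3.96% on SD. It fell by 1.85 ± 0.22 on the log2 scale averaged over diets (limma, adjusted p = 0.00235) and by 2.25 ± 0.31 on HFHS (adjusted p = 0.00807), and the difference on SD was -1.44 ± 0.31 (adjusted p = 0.219). Over the same comparison the CD3 chains differed by -0.11 ± 0.35 for Cd3d, 0.023 ± 0.11 for Cd3e and 0.056 ± 0.49 for Cd3g. Cd5, a negative regulator of T cell receptor signalling, differed by 0.66 ± 0.17 averaged over diets (adjusted p = 0.0978).

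Genes of T cell differentiation (15 of 15 tested) and of cytotoxic T and natural killer cells (9 of 14 tested) had no member past the threshold in any comparison. Their medians for CB1KO against WT averaged over diets were 0.077 and -0.013. Ifng, interferon gamma, was well above background on all 4 CB1KO_HFHS arrays and on none of the other 12, so it entered the test only through the group where it was high. Its level on HFHS was at least 1.81-fold higher in CB1KO than in WT (adjusted p = 0.213), and no fold can be given on SD. Klrd1, a natural killer receptor subunit that was well above background on 3 of 8 CB1KO arrays and 1 of 8 WT arrays, differed by 1.32 ± 0.34 averaged over diets (adjusted p = 0.0931). With so few arrays well above background, the Klrd1 difference is a fitted value, not a measured fold. Gzmk, a granzyme of cytotoxic cells, differed the other way, by -0.94 ± 0.27 (adjusted p = 0.127). In the differentiation list, Il2rb, an interleukin 2 receptor chain, differed by 1.42 ± 0.40 (adjusted p = 0.130). In the receptor signalling list, for HFHS against SD averaged over genotypes, the co-stimulatory receptor Cd27 differed by -0.92 ± 0.27 (adjusted p = 0.206) and Cd6, a T cell adhesion receptor, by -0.70 ± 0.17 (adjusted p = 0.140).

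No B cell gene passed the threshold, and the B cell list as a whole was evenly split. Of the B cell receptor and identity list 16 of 18 genes were tested, with 0 called in either direction in any comparison and, for HFHS against SD averaged over genotypes, 8 of 16 above 0 with a median of -0.029, where all genes had -0.056. Ms4a1, encoding the B cell surface protein CD20, was well above background on 7 of 8 HFHS arrays, against 1 of 8 SD arrays, and differed by 1.998 ± 0.41 (adjusted p = 0.0900). Its values were -3.69, -3.91, -1.29 and -3.34 in CB1KO_HFHS, -3.38, -3.05, -3.66 and -3.81 in WT_HFHS, -3.48, -4.70, -6.06 and -5.48 in CB1KO_SD and -5.86, -5.13, -6.17 and -5.25 in WT_SD. The HFHS and SD arrays did not overlap in WT, where the difference is a bound of at least 1.28-fold, and overlapped in CB1KO through replicate 1 of CB1KO_SD. In WT, 5.53% of all tested genes had HFHS and SD arrays that did not overlap. Ltb, which was named because it was most like Jchain and which belongs to the lymph node list (3 of 8 genes above 0, median -0.14), was well above background on 8 of 8 HFHS arrays, against 1 of 8 SD arrays, and differed by 1.48 ± 0.26 (adjusted p = 0.0533). It was at -3.29, -3.26, -1.67 and -2.89 in CB1KO_HFHS, -3.27, -2.93, -3.36 and -3.20 in WT_HFHS, -3.56, -4.13, -4.53 and -4.83 in CB1KO_SD and -4.51, -4.48, -4.25 and -5.38 in WT_SD, so that no HFHS array overlapped an SD array. Within a genotype, such a separation was found for 3.76% of all tested genes in CB1KO and 5.53% in WT. The choice of Ltb by likeness to Jchain, itself higher on HFHS, favours it. In WT, where no SD array was well above background, the difference is a bound of at least 1.56-fold (adjusted p = 0.487). Over 25 alternative settings, Ltb differed by 0.67 to 1.83 and passed the threshold in 2 (adjusted p from 0.0327 to 0.138), and Ms4a1 differed by 0.65 to 2.37 and passed in 1 (adjusted p from 0.0382 to 0.214). Pou2af1, also named for its likeness to Jchain, was well above background on 5 of 8 HFHS arrays and 0 of 8 SD arrays. It thus entered the test only through the HFHS arrays. Its difference is therefore a bound, at least 1.03-fold in CB1KO (adjusted p = 0.501), and in WT no bound above 1 was reached. Ltb and Ms4a1, with 1 of 8 SD arrays each, likewise met the filter of 4 arrays only with their HFHS arrays.

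Replicate 3 of CB1KO_HFHS, the array with the highest Jchain, was also the highest for Ms4a1, and for Ltb and Pou2af1, which their choice by likeness to Jchain favours. Without it, HFHS against SD averaged over genotypes was 2.41 for Jchain (adjusted p = 0.232), 1.29 for Ltb (0.0541) and 1.70 for Ms4a1 (0.139). The share of spots well above background was higher on WT_HFHS arrays than on WT_SD arrays except for replicate 4 of WT_HFHS (62.4%), and its part in these low genes was not tested. Of the plasma cell list 12 of 12 genes were tested, 0 were called in any comparison, and the median was 0.13 for HFHS against SD averaged over genotypes. Irf4, a factor of plasma cell differentiation, differed by 1.11 ± 0.45 in CB1KO (adjusted p = 0.439). Sdc1, the plasma cell surface marker CD138, differed by 0.35 ± 0.14 averaged over genotypes (adjusted p = 0.360).

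**Figure D4:**
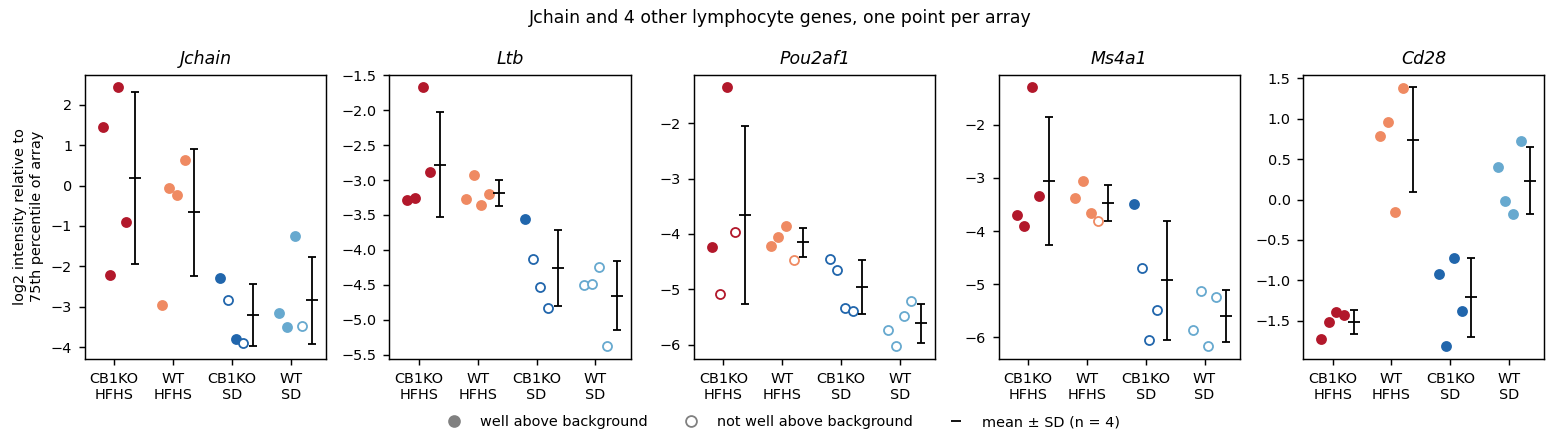
Log2 intensity relative to the array's 75th percentile for Jchain, Ltb, Pou2af1, Ms4a1 and Cd28, a point per array and 4 arrays per group, with mean ± SD beside each group and open points not well above background. Ltb and Ms4a1 are well above background on 8 and 7 of 8 HFHS arrays and on 1 of 8 SD arrays each, and Cd28 separates CB1KO from WT arrays on both diets.

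The lists for other immune and non-immune cells had no gene past the threshold in any comparison. The class II MHC genes, used by B cells, macrophages and dendritic cells to present antigen, had a summed linear level of 107 to 181 over 9 tested genes in CB1KO_HFHS, against 54.2 to 84.5 in WT_HFHS, and 31.1 to 103 in CB1KO_SD, against 45.2 to 84.1 in WT_SD. Their median was 0.89 for CB1KO against WT on HFHS, with 8 of 9 above 0, and 1.30 for HFHS against SD in CB1KO, against 0.099 in WT. H2-Eb1 differed by 1.46 ± 0.38 between HFHS and SD in CB1KO (adjusted p = 0.192). The 16 macrophage markers summed to 107 to 170 in CB1KO_HFHS and 88.5 to 112 in WT_HFHS, and to 82.5 to 120 in CB1KO_SD and 78.3 to 133 in WT_SD, so the sums of the groups overlapped. Such sums weigh the brightest genes most. The median of the macrophage markers was 0.81 for CB1KO against WT on HFHS, with 15 of 16 above 0, and 0.12 on SD, with 11. It was 0.58 for HFHS against SD in CB1KO, with 16 of 16 above 0, and -0.12 in WT, with 4. The list of lymph node stroma and vessel markers, of which 8 of 10 genes were tested and which itself holds Ltb, had Ccl19 well above background on 16 arrays, Cxcl13 on 15, Glycam1 on 12 and Madcam1 on 7. It summed to 7.63 to 16.6 in CB1KO_HFHS, 7.66 to 10.2 in WT_HFHS, 6.68 to 9.64 in CB1KO_SD and 6.84 to 8.96 in WT_SD. On CB1KO_HFHS arrays the sum was 16.6, 8.63, 7.63 and 8.42, where Jchain was at 1.44, -2.21, 2.42 and -0.91. The median of the 10 adipocyte markers was 1.72 for HFHS against SD in CB1KO, with 7 of 10 above 0, and 0.49 in WT, with 6. For CB1KO against WT it was 0.21 on HFHS, with 6 above 0, and -0.74 on SD, with 1. Summed levels of adipocyte markers were 278 to 522 in CB1KO_HFHS, 273 to 431 in WT_HFHS, 261 to 380 in CB1KO_SD and 294 to 659 in WT_SD, and those of red blood cell markers were 475 to 901, 623 to 756, 595 to 839 and 514 to 788 in the same order. Neutrophil markers summed to 3.396 to 8.96, 4.16 to 5.43, 4.90 to 9.08 and 3.66 to 5.19, and endothelial markers to 42.3 to 57.9, 45.5 to 65.9, 45.6 to 61.4 and 43.8 to 54.3, again in that order. The part of these cell types in the values of the lymphocyte genes was not tested.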

How the data were processed

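Whole-muscle RNA was measured on 16 arrays. Per the file headers, Feature Extraction 11.5.1.1 made the scanner tables, in which the authors deposited raw spot intensities and a background-corrected, processed intensity. The series-wide table they deposited gives each spot a score, found here to be the array's log2 processed intensity after centring and division by its SD, to within 0.0050. For the analysis, processed intensities were put on the log2 scale and the 75th percentile over the array's 55681 probes was subtracted, after setting outlier spots (0.299% of values) to missing and averaging repeated spots. A probe had to be well above background on 4 or more arrays, and the brightest one stood for its gene. With limma 3.58.1 in R 4.3.3 (lmFit, eBayes), group means were estimated from the 16 arrays together and tested two-sided, with Benjamini-Hochberg adjustment over 28964 genes and a threshold of 0.05. The fit was checked on simulated data. Exact permutation tests served single values, and correlations with array spread used 100000 permutations.

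The genes and the 13 further lists (167 entries, 164 on the array) were chosen with earlier results of these data known. Named were all 9 genes, listed genes past the threshold, up to 4 listed genes with the smallest p in the averaged genotype comparison and 2 in each other, the 3 most like each gene, and Cnr1, except that some items are not reported here; the levels of Ltb, Ms4a1 and Pou2af1 per array were chosen after their values were seen. Replicate numbers equal the column on the slide. Same-numbered arrays of different groups correlated in their deviations from group means at -0.75 to 0.61 (median near 0, 8 of 24 pairs over 0.1), so they were not treated as pairs. The number of arrays limits the precision.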

Additional observations from a re-analysis of the deposited data

Results flagged for a closer look

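Of 32 gene-by-group sets of 4 arrays examined, 3 held an array whose gap to its nearest neighbour exceeded Dixon's critical ratio of 0.829; chance alone flags about 1 in 20 sets. Cd3g was at -4.88 on replicate 1 of CB1KO_HFHS, where the nearest array had -2.75. Cd8a was at -7.16 on the same array, where the nearest had -4.50, and that array had the widest signal spread of all 16 (SD 3.97). Jchain was at -1.24 on replicate 3 of WT_SD, where the nearest had -3.14.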

How the results depend on the processing

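None of the lymphocyte genes passed the threshold in any comparison under the alternatives run: 532 values from other processing gave a lowest adjusted p of 0.119 and 896 from leaving out each array in turn gave 0.103 (limma). The sign turned in 49 and 80 of them, most often in Cd3g and Cd3e, followed by Cd8a, Cd79b and Cd4, and the causes were not tested. For Cd79b it turned in 10 of 26 values for CB1KO against WT averaged over diets. The log2 fold changes of Jchain, Cd3d, Cd2 and Cd79b for HFHS against SD in CB1KO stayed above 0 under every alternative that gave a value, at 2.59 to 4.18 for Jchain, 0.59 to 1.93 for Cd3d, 0.74 to 1.21 for Cd2 and 0.55 to 1.14 for Cd79b. The interaction of Cd3d ranged from 0.68 to 2.25. Requiring detection on all arrays left 18932 genes and 4 of the lymphocyte genes, so it gave no value for Cd3d, Cd3g, Cd8a and Jchain. Limits are the dim probes, diet shared with slide, genotype shared with the row on the slide, and 4 arrays a group.

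Counts of genes past the threshold moved more. For CB1KO against WT on SD, 1 gene passed, against 21 with normexp and quantile normalization, 23 with quantile normalization, 25 with the deposited series table, 7 with detection on all arrays, 3 with the mean of a gene's probes, 150 with the spread of signal as a covariate and 236 without the 2 arrays of unusual spread. On HFHS the count was 68, against 130 with normexp, 355 with the covariate and 193 without the 2 arrays. Averaged over diets it was 205, against 385 with normexp, 366 with quantile normalization, 135 with no filter, 1752 with the covariate and 891 without the 2 arrays. For the interaction it was 0, against 1 with normexp and 11 without the 2 arrays. For HFHS against SD in CB1KO it was 8, against 2 with normexp, 2 with quantile normalization, 3 with the deposited table, 4 with no filter, 20 with detection on all arrays, 15 with the covariate and 25 without the 2 arrays. In WT it was 0, against 1 without the 2 arrays. Averaged over genotypes it was 25, against 11 with normexp, 4 with quantile normalization, 0 with the deposited table, 11 with no filter, 41 with detection on all arrays, 38 with the covariate and 47 without the 2 arrays. Replicate numbers did not pair the samples. With the replicate block the counts were 36 on HFHS, 59 averaged over diets, 0 for HFHS against SD in CB1KO and 1 averaged over genotypes, and no call among the lymphocyte genes changed. With normexp the median of all genes for CB1KO against WT on HFHS was -0.023, in place of -0.13.

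Signs turned as follows. With normexp, CB1KO against WT on SD was -0.047 for Cd3e and 0.037 for Cd2, and averaged over diets 0.050 for Cd3d, -0.0090 for Cd3e and -0.062 for Cd79b. The interaction was 0.076 for Cd3e and -0.055 for Cd3g. HFHS against SD in CB1KO was 0.018 for Cd3e, 0.0053 for Cd3g and -0.019 for Cd4, in WT 0.060 for Cd3g and 0.049 for Cd8a, and averaged over genotypes 0.033 for Cd3g. With quantile normalization, Cd3e was -0.0053 on SD, -0.0072 on HFHS and -0.0062 averaged over diets, where Cd3d was 0.16 and Cd79b -0.084. Cd3g was 0.13 for HFHS against SD in CB1KO, 0.061 in WT, with Cd8a at 0.11, and 0.098 averaged over genotypes. With the deposited table, the interaction was 0.026 for Cd3e. HFHS against SD in CB1KO was 0.12 for Cd3e and 0.16 for Cd3g, in WT 0.096 for Cd3e, 0.061 for Cd3g and 0.18 for Cd8a, and averaged over genotypes 0.11 for Cd3e and 0.11 for Cd3g. With the mean of a gene's probes, Cd4 was -0.047 for HFHS against SD in CB1KO. With the covariate, HFHS against SD was 0.64 for Cd3g in CB1KO, and in WT 0.019 for Cd3e, 0.43 for Cd3g, 0.38 for Cd8a and -0.014 for Cd2. Averaged over genotypes it was 0.0085 for Cd3e, 0.54 for Cd3g, 0.072 for Cd4 and 0.043 for Cd8a. Without the 2 arrays, CB1KO against WT was -0.61 for Cd3g and -0.38 for Cd8a on SD, -0.031 for Jchain averaged over diets, and the interaction was 0.29 for Cd8a. HFHS against SD was then 1.101 for Cd3g and 0.20 for Cd8a in CB1KO, and 0.48 for Cd3g, 0.045 for Cd4 and 0.049 for Cd8a averaged over genotypes.

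Leaving out each array in turn gave these ranges. CB1KO against WT on SD had 0 to 26 genes, Cd3e -0.044 to 0.098, Cd3g -0.61 to 0.43, Cd8a -0.38 to 0.26, Cd2 -0.32 to 0.11 and Jchain -0.66 to 0.17. On HFHS there were 20 to 133 genes, Cd3e -0.070 to 0.11, Cd3g -0.21 to 0.64 and Cd4 -0.14 to 0.14. Averaged over diets there were 47 to 617 genes, Cd3d -0.30 to 0.10, Cd3e -0.019 to 0.072, Cd3g -0.27 to 0.35, Cd79b -0.18 to 0.12 and Jchain -0.14 to 0.64. The interaction had 0 to 11 genes, Cd3e -0.11 to 0.066 and Cd3g -0.37 to 0.67. HFHS against SD in CB1KO had 0 to 30 genes, Cd3e -0.13 to 0.049, Cd3g -0.52 to 0.52 and Cd4 -0.11 to 0.24. In WT there were 0 to 1 genes, Cd3e -0.099 to 0.046, Cd3g -0.63 to 0.094, Cd8a -0.33 to 0.090, Cd2 -0.11 to 0.21 and Cd79b -0.0092 to 0.40. Averaged over genotypes there were 1 to 52 genes, Cd3e -0.075 to 0.016 and Cd3g -0.39 to 0.19.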
